A study of Homo sapiens with 8 samples.

Results

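The comparison described here asks what pretreatment with XL413 does to the transcriptome of Huh7, an established human liver cancer cell line. It used the 4 Huh7 libraries of a series of 8, chosen by their labelled cell line. The other 4 libraries are of Hep3B, a different established liver cancer line. Both lines were grown in serum-containing medium, and poly(A) RNA was sequenced from 1 library per line and treatment. The Huh7 groups were control cells with no drug, cells given sertraline, cells given XL413 for 10 days, and cells given XL413 for 10 days and then sertraline for 24 hours. Doses, and the time of sertraline given alone, are not stated in the sources used here. The 2 libraries with XL413 were set against the 2 without it, with sertraline as a block, so each XL413 library was compared with the library that shared its sertraline status. A gene was called changed when its adjusted p was under 0.05 and both pairs moved in the same direction.

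XL413 inhibits CDC7, the kinase that, with its partner DBF4, phosphorylates the MCM helicase and so lets replication origins fire. Per the labels, the pretreatment was meant to induce senescence, a lasting arrest of division in which cells stay metabolically active. Senescent cells are known for raised CDK inhibitors, loss of the nuclear lamina protein lamin B1, and secretion of cytokines, growth factors and matrix proteases, much of it driven by the transcription factor NF-kappaB. Sertraline, used as an antidepressant, inhibits reuptake of serotonin by its transporter. Hepatocyte-derived cells also make plasma proteins, cholesterol and triglycerides, so genes of these products are included below.

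Total counts of the Huh7 libraries were 27262246 in control, 28877060 after sertraline, 28465776 after XL413 and 28902625 after both. Of 31710 genes in the table, 15796 passed the filter on low counts. The first principal component of the Huh7 libraries, with 54.25% of the variance, separated them by sertraline, and the second, with 40.2%, by XL413. Nothing in the labels says that the libraries came from separate cultures. No culture time is given for cells without XL413, so 10 days of drug and time in culture cannot be told apart. The fit left 1 residual degree of freedom and set every gene's spread to a trend over genes of like level. Its p-values therefore rest on a pooled spread, not on each gene's own replicates or on the spread between cultures, and an exact permutation test of 2 libraries against 2 cannot go below 0.333. XL413 acts on the CDC7 protein, so CDC7 mRNA is no check of the treatment. As for identity, the liver markers ALB and AFP were abundant in every Huh7 library: ALB had 5696 to 8121 CPM and AFP 15490 to 22530 CPM (TMM-scaled read counts relative to library size).

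Between libraries with and without XL413, 4705 genes were called changed in Huh7, 29.8% of those tested. Of these 2555 were higher with XL413, 16.2% of genes tested, and 2150 were lower, 13.6%. Most changes were modest, with a median size of 0.48 on the log2 scale among called genes. Scaled to total counts instead, 75.35% of 4166 called genes were higher, against 54.3% here, and the median log2 change of all genes was 0.09. DESeq2 called 1779 genes, and the fit without the sertraline block called 0, with 1547 at an unadjusted p under 0.05. Leaving out a library leaves 1 whole pair: 1514 and 1513 genes were called without the control or XL413 library, and 887 and 870 without the sertraline library or that of both drugs. These fits, and the counts below for 1 pair alone, take the change from the pair left whole. Their residual spread comes from the Hep3B libraries, and agreement of pairs was not required. In the main fit, a further 21 genes with an adjusted p under 0.05 were not called because their pairs went in different directions. Both pairs had the same sign for 74.5% of all tested genes and the pairs shared no library. The ratios correlated across genes with r = 0.76, which is a description, since genes are not independent replicates. At least 2-fold in both pairs, on ratios of CPM + 0.5, were 289 genes, 1.83% of those tested. There 263 were higher, 1.66%, and 26 were lower, 0.165%. No gene moved at least 2-fold in opposite directions in the 2 pairs.

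**Figure D1:**
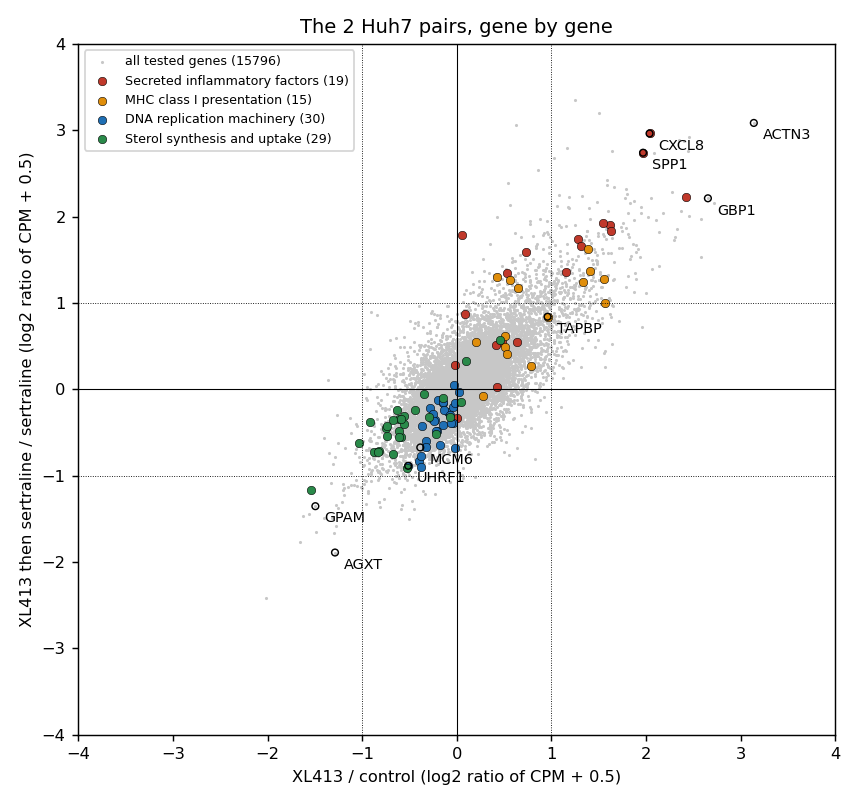
Each point is 1 of 15796 genes tested in Huh7, with the log2 ratio of CPM + 0.5 between XL413 and control on the horizontal axis and between XL413 then sertraline and sertraline on the vertical axis. Dotted lines mark 2-fold. Most inflammatory and antigen presentation genes lie in the upper right, and most replication and sterol genes in the lower left.

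Higher and lower calls lay at different levels of expression. Among 4609 tested genes with a mean log2 CPM under 2, 965 were called higher and 185 lower, and their median log2 change was 0.22. Among 3534 genes with a mean log2 CPM of at least 6, 292 were called higher and 833 lower, and the median was -0.10. The XL413 libraries also had more genes with any read, 24396 and 24790, than the libraries without XL413, with 22801 and 22905. The part of this level pattern in the gene groups below was not tested. Each group's median can be read against the median of -0.01 over all tested genes and against these medians by level.

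**Figure D2:**
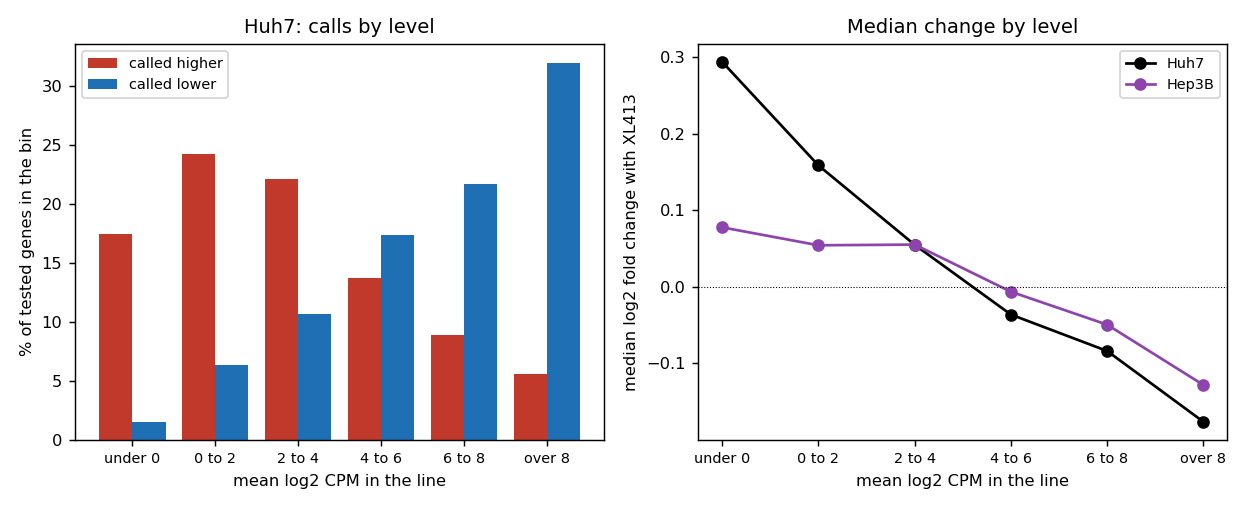
On the left are the percentages of tested Huh7 genes called higher (red) or lower (blue) with XL413 in 6 bins of mean log2 CPM, and on the right the median log2 fold change per bin in each line. In Huh7 the median went from 0.29 in the lowest bin to -0.18 in the highest.

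Secreted cytokines and chemokines were mostly higher with XL413. Of 19 tested secreted inflammatory factors 16 were called higher and none lower, with a median log2 change of 1.34. With the pair with sertraline alone 16 were called, with a median of 1.83, and with the other pair alone 11, with a median of 0.75 (without the library of both drugs 0.74). Another 12 genes of the list, among them IL6, IL1A, IL1B and CCL2, had too few reads to test, and MMP3 was not analysed here. CXCL8, the neutrophil-attracting chemokine interleukin 8, had 19.1 CPM in control, 1.63 after sertraline, 79.9 after XL413 and 16.1 after both. It was higher with XL413 in both pairs, although the library with both drugs stayed just below the control. The rise was 2.40 ± 0.12 on the log2 scale (± SE, edgeR adjusted p = 1.74e-90). This SE rests on the pooled spread over genes, not on the spread of the 2 pairs. The log2 pair ratios were 2.04 without sertraline and 2.96 with it.

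Promoter sequences of some CXC chemokines are shown because those printed rose together and share a short element. GGAATTTCC, a form of the site bound by NF-kappaB, was searched on both strands in RefSeq windows (GRCh38.p14) from 250 bases before to 50 bases after the start site. It occurred in 8 of the 23 inflammatory genes that had a window, namely CXCL1, CXCL2, CXCL3, CXCL5, CXCL6, CXCL8, CXCL10 and CXCL11. These 23 include genes with too few reads to test, CXCL11 among them. Of all 35116 windows 0.461% held it, and of the genes tested in Huh7 with a window 0.61%. Capitals mark the element in the bases before each start site, for CXCL8 (chr4:73740319-73740568, plus strand), CXCL1 (chr4:73869143-73869392, plus), CXCL5 (chr4:73998678-73998927, minus) and CXCL6 (chr4:73836428-73836677, plus).
CXCL8: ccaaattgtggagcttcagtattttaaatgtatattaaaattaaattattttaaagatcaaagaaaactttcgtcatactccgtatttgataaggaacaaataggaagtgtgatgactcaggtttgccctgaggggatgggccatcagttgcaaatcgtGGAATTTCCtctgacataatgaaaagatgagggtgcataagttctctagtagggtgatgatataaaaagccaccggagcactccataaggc
CXCL1: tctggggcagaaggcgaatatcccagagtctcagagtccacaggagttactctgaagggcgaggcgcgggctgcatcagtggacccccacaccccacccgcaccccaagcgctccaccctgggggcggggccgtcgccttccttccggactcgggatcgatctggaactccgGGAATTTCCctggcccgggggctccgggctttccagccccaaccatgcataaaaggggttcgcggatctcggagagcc
CXCL5: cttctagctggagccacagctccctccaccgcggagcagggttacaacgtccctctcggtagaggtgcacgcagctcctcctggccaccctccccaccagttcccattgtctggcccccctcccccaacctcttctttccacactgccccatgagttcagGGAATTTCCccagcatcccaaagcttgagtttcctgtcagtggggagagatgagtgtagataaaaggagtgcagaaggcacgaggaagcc
CXCL6: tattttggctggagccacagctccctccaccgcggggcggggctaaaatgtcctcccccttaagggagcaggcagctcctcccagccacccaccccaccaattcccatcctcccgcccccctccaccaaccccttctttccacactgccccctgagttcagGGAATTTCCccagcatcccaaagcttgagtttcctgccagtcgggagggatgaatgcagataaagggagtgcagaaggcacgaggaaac
The element began 91 bases before the start site in CXCL8, 78 in CXCL1, 90 in CXCL5 and 89 in CXCL6. A match describes the letters in the window and does not show that a factor binds there. Among tested genes with a window, it was found in 25 of 1748 called higher, 4 of 1586 called lower and 35 of 7163 not called.

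These 4 chemokines rose together. CXCL5 had 15.0, 3.33, 44.7 and 14 CPM in control, sertraline, XL413 and both drugs, a rise of 1.75 ± 0.12. CXCL1 had 5.83, 0.326, 18.9 and 2.58 CPM in the same order and rose by 1.89 ± 0.17, while CXCL6 had 3.84, 0.362, 12.9 and 2.58 CPM and rose by 1.95 ± 0.19. In each case sertraline alone gave the lowest value and XL413 alone the highest, so the groups overlapped and the change lies within the pairs. CXCL1, CXCL2 and CXCL3 are near-identical, and their reads may be split between them. CXCL10, a chemokine for T cells induced by interferon, had 0.414 and 0.326 CPM without XL413 and 4.39 and 3.36 CPM with it, where the groups did not overlap. Its values without XL413 were near the limit of the filter on low counts, which it passed largely through the XL413 libraries. SPP1, the secreted matrix protein osteopontin, had 4.67, 0.976, 19.7 and 9.37 CPM and rose by 2.45 ± 0.15. IL18, a cytokine activated by inflammasomes, had 16.1, 2.68, 40.8 and 9.57 CPM and rose by 1.5 ± 0.12. The EGF receptor ligand AREG rose by 1.15 and VEGFA, the endothelial growth factor, by 0.47.

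Of the 16 tested subunits and feedback genes of NF-kappaB, 12 were called higher and none lower, with a median of 0.44, and 7 with the pair without sertraline alone. BIRC3, an inhibitor of apoptosis, had 0.828 and 0.398 CPM without XL413 and 6.52 and 6.11 CPM with it, a rise of 3.37 ± 0.23. The feedback inhibitor TNFAIP3 (A20) had 18.9 and 17.6 CPM without XL413 and 35.1 and 48.4 CPM with it. ICAM1, an adhesion molecule for leukocytes, rose from 41.6 and 52.9 CPM to 79.2 and 118 CPM. RELB, a subunit of the alternative pathway, rose by 0.99 ± 0.11. The 2 XL413 libraries were above both others for each of these 4 genes. RELA, the subunit of the classical pathway, did not pass the test (log2 change 0.15, adjusted p = 0.214).

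Genes of antigen presentation by MHC class I molecules, which show peptides to cytotoxic T cells, were mostly higher with XL413. Of 15 tested, 12 were called higher and none lower, with a median of 1.44. The median was 0.93 with a filter of 1 CPM, and 7 were called with the pair without sertraline alone. HLA-C, a class I heavy chain, had 2.94 CPM in control, 2.89 after sertraline, 8.61 after XL413 and 8.26 after both. The XL413 libraries were well above the others, and within each group the library with sertraline was slightly lower. The rise was 1.53 ± 0.16 (edgeR adjusted p = 1.2e-19). HLA genes are highly variable and alike, so reads may be lost or shared between them. TAP1, which pumps peptides into the endoplasmic reticulum, had 1.62 and 2.71 CPM without XL413 and 5.79 and 5.94 CPM with it. TAPBP (tapasin), which loads peptides, rose by 0.91 ± 0.09. B2M, the invariant light chain and the most abundant of these at 198 to 308 CPM, rose by 0.50 ± 0.10.

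Of 22 tested interferon-stimulated genes, 13 were called higher and 1, IFIT5, lower, with a median of 0.67, and 10 more had too few reads to test. MX1, an antiviral GTPase, had 1.47 CPM in control, 4.23 after sertraline, 6.69 after XL413 and 18.0 after both. Its levels with XL413 lay above both others, and it rose by 2.12 ± 0.16. IFIH1 (MDA5), a sensor of viral RNA, rose by 1.80 ± 0.21, IFITM3 by 0.93 ± 0.11 and the transcription factor IRF1 by 0.99 ± 0.12. STAT2, which helps carry the interferon signal, did not pass the test (log2 change 0.14). In DESeq2, and with the pair without sertraline alone, 8 of the 22 were called higher and none lower.

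The windows of B2M and TAP1 are shown because the presentation and interferon genes share the core of the interferon-stimulated response element. TTTCNNTTTC on either strand was found in 9 of the 12 presentation genes and 16 of the 23 interferon genes with a window. The interferon genes here were counted whether or not they had enough reads to test. It was in 3.57% of all windows and in 3.95% of tested genes with a window. Capitals mark it for B2M (chr15:44711267-44711516, plus strand) and TAP1 (chr6:32853705-32853954, minus strand), where 2 matches overlap in each.
B2M: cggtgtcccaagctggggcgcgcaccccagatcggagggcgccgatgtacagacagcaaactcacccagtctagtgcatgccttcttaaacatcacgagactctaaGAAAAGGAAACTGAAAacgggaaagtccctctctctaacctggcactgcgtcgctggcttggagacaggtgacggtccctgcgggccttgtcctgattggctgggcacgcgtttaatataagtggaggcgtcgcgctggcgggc
TAP1: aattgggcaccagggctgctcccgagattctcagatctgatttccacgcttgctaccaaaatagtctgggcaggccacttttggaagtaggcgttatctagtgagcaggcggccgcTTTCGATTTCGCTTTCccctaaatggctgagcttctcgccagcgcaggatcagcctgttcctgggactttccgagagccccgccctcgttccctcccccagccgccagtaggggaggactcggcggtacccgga
The first match began 144 bases before the start site in B2M and 134 bases before it in TAP1. It was found in 100 of 1748 tested genes called higher, 52 of 1586 called lower and 262 of 7163 not called.

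**Figure D3:**
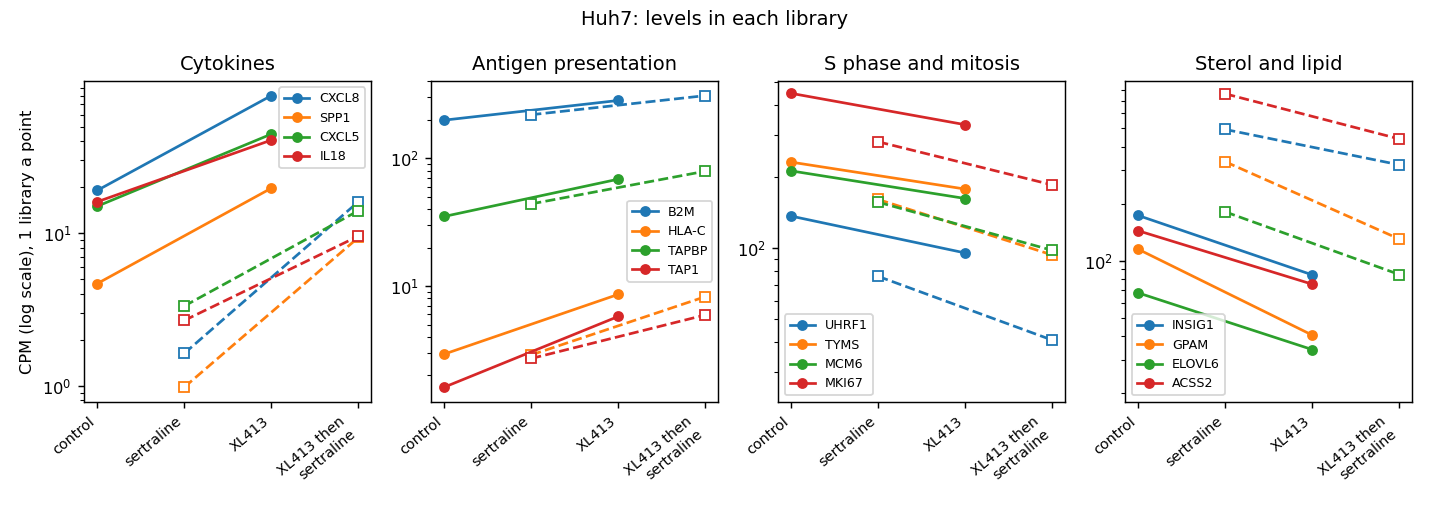
CPM on a log scale in the 4 Huh7 libraries, 1 library per point, for 16 genes in 4 groups. Solid lines join control to XL413 and dashed lines join sertraline to XL413 then sertraline. Both lines of a gene slope upward for cytokine and presentation genes and downward for cell cycle and lipid genes.

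Many genes of DNA replication, though not CDC7 itself, were lower with XL413, with medians smaller in size than that of the cytokines. CDC7 had 24.5 CPM in control, 18.1 after sertraline, 21.0 after XL413 and 15.5 after both. The groups overlapped and CDC7 did not pass the test (log2 change -0.22 ± 0.11, edgeR adjusted p = 0.108), nor did DBF4 (-0.18 ± 0.09). Of 23 genes of CDC7, the MCM helicase and their loading factors, 14 were called lower and none higher, with a median of -0.30, and 22 had ratios below 0 in both pairs. DESeq2 called 8 of them and total count scaling 10, with medians of -0.30 and -0.20. GINS2, a subunit of the active helicase, had 50.4, 39.3, 38.4 and 21.6 CPM in control, sertraline, XL413 and both, and fell by 0.62 on the log2 scale. The loading factor CDT1 had 62.1, 67.3, 50.5 and 38.4 CPM, with both XL413 libraries below the others. MCM6, a helicase subunit, had 211, 156, 162 and 97.7 CPM and fell by 0.53, and CDC45 by 0.44.

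Of 30 replication enzymes and S phase regulators 17 were called lower and none higher, with a median of -0.29. DESeq2 called 9 and total count scaling 10. UHRF1, which guides maintenance of DNA methylation, had 136, 75.8, 95.2 and 40.8 CPM and fell by 0.70 (edgeR adjusted p = 6.76e-12). The libraries overlapped for UHRF1, since sertraline alone also gave a low value. TYMS, thymidylate synthase, fell by 0.58, DUT, which clears dUTP, by 0.62, and the repressor E2F7 by 0.65. Of 21 repair genes 13 were lower, including the histone H2AFX, which fell by 0.66, the nuclease EXO1, which fell by 0.38, and the recombination genes RAD51AP1 and RAD54L, which both fell by 0.36. Total count scaling called 3 repair genes and DESeq2 called 1, and of these 4 named genes DESeq2 called H2AFX alone. Of 32 mitotic genes 13 were lower, with a median of -0.19. DESeq2 called 8 of these and total count scaling 7, where the median was -0.09. MKI67, the proliferation marker Ki-67, had 449, 280, 331 and 184 CPM and fell by 0.52, the kinase AURKB by 0.50, the transcription factor FOXM1 by 0.42 and BIRC5 (survivin) by 0.40. The pair without sertraline on its own called 0 of the CDC7 and MCM genes, 1 replication gene and 1 mitotic gene, and the pair with sertraline called 8, 9 and 5.

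MCM6 is shown with TTTGGCGC, a form of the site bound by E2F factors, which drive S phase genes. The letters occurred in 5 of 20 CDC7 and MCM genes and 6 of 25 replication genes with a window. They were in 0.652% of all windows and in 1.36% of tested genes with a window. MCM6 (chr2:135876444-135876693, minus strand) held it 2 times, in capitals, the first 152 bases before the start site.
MCM6: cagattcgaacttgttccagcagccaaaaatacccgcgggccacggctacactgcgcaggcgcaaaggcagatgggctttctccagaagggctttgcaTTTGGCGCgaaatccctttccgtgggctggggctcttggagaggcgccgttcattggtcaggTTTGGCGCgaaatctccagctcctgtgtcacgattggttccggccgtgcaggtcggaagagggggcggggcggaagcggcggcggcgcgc
It was found in 38 of 1586 tested genes called lower, 20 of 1748 called higher and 85 of 7163 not called.

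Among G1 regulators, 7 of 15 tested were lower and none higher, with a median of -0.16. This count depended on the scaling, the filter and the pair. Total count scaling gave 3 lower and 2 higher, a filter of 1 CPM gave 5 lower and 2 higher, DESeq2 gave 3 lower, the pair with sertraline alone 3 lower and 1 higher, and the other pair 1 lower with a median of -0.02. MYCN, a MYC family oncogene, had 34.5 CPM in control, 13.0 after sertraline, 12.7 after XL413 and 4.31 after both. Values were lower after either drug, the library with both was the lowest, and the fall with XL413 was 1.5 on the log2 scale. CDC25A, a phosphatase that activates CDK2, fell by 0.44 and the cyclin D kinase CDK4 by 0.39. Of 23 ribosome biogenesis genes 14 were lower and none higher, such as RRS1, which fell by 0.50, and fibrillarin (FBL), which fell by 0.42. DESeq2 called 9 of them and total count scaling 7. The pair with sertraline alone called 5 and the other pair 0.

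Markers used for senescence moved unevenly. CDKN1A, the CDK inhibitor p21, had 4.59 CPM in control, 6.76 after sertraline, 13.9 after XL413 and 12.2 after both, and rose by 1.20 ± 0.13 with no overlap. CDKN2A, which encodes p16, had 27.8, 16.0, 25.8 and 14 CPM and did not pass the test (log2 change -0.15 ± 0.11). LMNB1, lamin B1, had 169, 116, 121 and 73.0 CPM and fell by 0.58 (edgeR adjusted p = 2.52e-08), a call lost without the sertraline library or that of both drugs. GLB1, the lysosomal beta-galactosidase, had 168, 200, 204 and 215 CPM and did not pass (0.19 ± 0.10). The growth factor binding proteins IGFBP3 and IGFBP5 rose by 1.58 ± 0.12 and 2.23 ± 0.26, and the protease PLAU by 1.74 ± 0.12. Of the 23 tested members of this list 12 were higher and 3 lower, while DESeq2 called 7 and 3, and each pair alone called 6 higher.

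Sterol genes were mostly lower with XL413. Of 29 genes of sterol synthesis and uptake 23 were called lower and 1 higher, with a median of -0.51. INSIG1, a brake on the sterol sensor, had 173 CPM in control, 494 after sertraline, 84.2 after XL413 and 321 after both. Libraries with sertraline were higher than those without it, XL413 was lower within each pair, and the groups overlapped. INSIG1 fell by 0.83 on the log2 scale (edgeR adjusted p = 7.67e-14). SREBF1, the gene of the lipogenic transcription factor SREBP1, fell by 0.72, from 138 CPM in both libraries without XL413 to 95.9 and 73.2 CPM with it. The sterol reductase TM7SF2 also fell by 0.72. The single member that rose was INSIG2, a relative of INSIG1, by 0.53. TCACNCCAC, a form of the sterol regulatory element, was in 1 of the 22 sterol genes with a window. It was in 1.13% of all windows and in 1.52% of tested genes with a window. With the pair with sertraline alone, 9 sterol genes were called lower, and with the other pair 20.

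Of 22 tested genes of fatty acid and triglyceride synthesis 15 were lower and 1 higher, with a median of -0.53. GPAM, which starts triglyceride assembly, had 115, 333, 40.5 and 130 CPM and fell by 1.43. ELOVL6, which lengthens fatty acids, fell by 1.05, the lipase PNPLA3 by 0.95 and the acetyl-CoA synthetase ACSS2 by 0.86. Of 10 sterol efflux genes controlled by LXR receptors 5 were lower and 1 higher, where PLTP fell by 0.55, ABCG8 by 0.64, APOC1 by 0.32 and ABCA1 by 0.30. Total count scaling called 2 of these lower, the pair with sertraline alone 1, and the other pair 0.

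**Figure D4:**
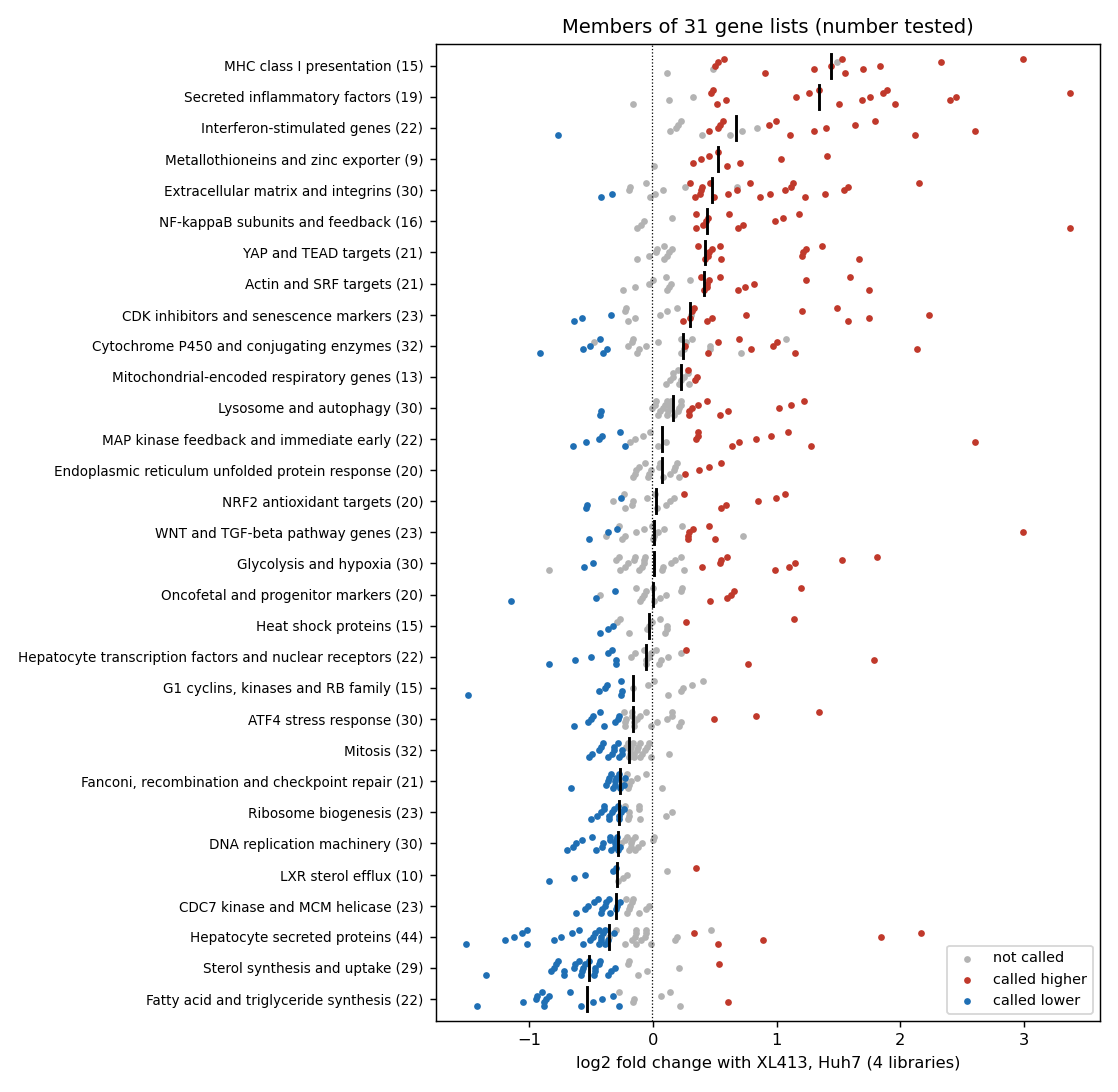
Log2 fold changes with XL413 of the tested members of 31 gene lists, ordered by median (black bars), with the number tested in brackets. Red points were called higher, blue points lower and grey points were not called, and the dotted line is the median of all tested genes. Presentation and inflammatory genes are at the top and lipid synthesis genes at the bottom.

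Plasma proteins made by hepatocytes were more often lower than higher. Of 44 tested 23 were lower and 5 higher, with a median of -0.36. The pair with sertraline alone called 12 lower and 2 higher, and the other pair 8 lower and 4 or 5 higher. PLG, plasminogen, had 42.5 and 64.3 CPM without XL413 and 17.0 and 19.9 CPM with it, a fall of 1.51, and ITIH1, an inter-alpha-trypsin inhibitor chain, fell by 1.13. Complement components C3 and C7 were higher. C3, the central complement component, rose from 202 and 169 CPM to 683 and 642 CPM, by 1.84 ± 0.11, and C7 from 3.77 and 2.79 CPM to 16.8 and 12.6 CPM. ALB and AFP did not pass the test, with log2 changes of -0.17 ± 0.17 and -0.43 ± 0.20. APOB fell by 0.51, TF by 0.42 and FGB by 0.39, calls that were each lost in all 4 fits that left out a library. TTR had 197, 149, 299 and 155 CPM, so that its ratio was near 1 in the pair with sertraline. Its call at a change of 0.33 was lost in DESeq2 (adjusted p = 0.101), in the fit of 8 libraries, and without the control or XL413 library, with a change of 0.05. AGXT, a liver enzyme that removes glyoxylate, had 5.91 and 12.1 CPM without XL413 and 2.13 and 2.91 CPM with it, the largest fall of the genes named by rule, at 1.81. The histidine-degrading enzyme HAL fell by 1.28 and the folate enzyme ALDH1L1 by 1.25.

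Of 22 tested hepatocyte transcription factors and nuclear receptors 7 were lower and 3 higher, against 2 or 3 lower and 1 higher with either pair alone. CEBPA, a driver of hepatocyte differentiation, had 343 and 429 CPM without XL413 and 234 and 262 CPM with it, and NR1H4, the bile acid receptor FXR, fell by 0.84. PPARGC1A, a coactivator of gluconeogenesis and mitochondrial genes, rose by 1.79 ± 0.14 and the xenobiotic receptor NR1I2 (PXR) by 0.77, a call lost in each of the 4 fits that left out a library. Of 32 tested drug-metabolizing enzymes 9 were higher and 6 lower, and DESeq2 called 4 and 3. CYP1A1, which oxidizes aromatic compounds, had 18.3, 21.6, 25.7 and 59.1 CPM, with pair ratios of 0.48 without sertraline and 1.43 with it. Its call at a change of 1.0 was lost in DESeq2 (adjusted p = 0.192) and without the sertraline library or that of both drugs. CYP3A5, whose call was lost without sertraline or both drugs, rose by 1.15 and GSTM3 by 0.70, while UGT2B4, of a family of near-identical genes, fell by 0.92. Called either way were 45.5% of the hepatocyte factors, 46.9% of these enzymes and 40% of fetal and progenitor markers, against 29.8% of all tested genes. Over all tested genes 16.2% were higher and 13.6% lower, near the 3 of 22 factors higher and the 3 of 20 markers lower. Among fetal and progenitor markers 5 of 20 were higher and 3 lower. Without the control library 2 were higher and 2 lower, without XL413 3 and 2, and without sertraline or both drugs 5 and 1. DLK1, a fetal NOTCH ligand, fell by 1.15, and PROM1 (CD133), EPCAM and KRT19 rose by 1.20, 0.63 and 0.60, where the KRT19 call was lost without the control library.

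Most genes of matrix and cell contact were higher with XL413. Of 30 tested 20 were higher and 2 lower, with a median of 0.48. COL1A2, a chain of collagen I, had 69.7 CPM in control, 30.0 after sertraline, 181 after XL413 and 104 after both, and rose by 1.57 ± 0.10. Its XL413 libraries were above both others. The laminin chain LAMA3 rose by 1.39 ± 0.12, and the proteoglycan SPOCK2 by 1.13 ± 0.09. Of 21 tested targets of the growth coactivator YAP 12 were higher and none lower, and of 21 actin genes and targets of SRF likewise 12 and none. TAGLN, an actin-binding protein, had 308, 11, 650 and 54.3 CPM, lowest after sertraline alone and highest after XL413 alone, and the rise with XL413 was 1.59 ± 0.11. ANKRD1, a YAP target, had 126, 8.43, 194 and 74.2 CPM and rose by 1.67 ± 0.10 overall. Its log2 pair ratios were 0.63 without sertraline and 3.06 with it, and its call was lost with robust empirical Bayes and without the sertraline library or that of both drugs, with a change of 0.61. CYR61, a matrix signalling protein, had 118, 4.67, 171 and 26.6 CPM, with log2 pair ratios of 0.54 without sertraline and 2.39 with it. Its call at a change of 1.24 was lost in DESeq2 (adjusted p = 0.312), with robust empirical Bayes, and without the sertraline library or that of both drugs. GADD45B and TGFB2 of the YAP list rose by 1.37 and 1.21. Of the actin list, ANXA1, CNN1 and MYL9 rose by 1.75, 1.24 and 0.81, with DESeq2 adjusted p of 0.0895, 0.065 and 0.0573. With the pair without sertraline alone, 4 YAP targets, 7 actin genes and 9 matrix genes were called higher.

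The largest rises among genes with a mean log2 CPM of at least 2 included muscle and transport genes. ACTN3, a fast muscle actinin, had 0.941 CPM in control, 1.01 after sertraline, 12.2 after XL413 and 12.3 after both. It rose by 3.64 ± 0.19, equally in both pairs, with no overlap. ACTA1, skeletal muscle actin, had 3.73, 0.289, 22.6 and 2.68 CPM and rose by 2.69 ± 0.18. The amino acid transporter SLC7A8 rose by 2.98 ± 0.17 and the betaine transporter SLC6A12 by 2.38 ± 0.18. GPC4, a cell surface proteoglycan, rose by 2.92 ± 0.17 and the interferon-induced GTPase GBP1 by 2.87 ± 0.18. TFPI2, CCDC80, the hexokinase relative HKDC1 and the collagen-binding FMOD rose by 2.54, 2.42, 2.32 and 2.30. Among falls, the cytokine receptor CSF3R fell by 1.70, the matrix protein THBS4 by 1.58, COL11A1 by 1.33, the kinase STK32C by 1.32 and AUTS2 by 1.23.

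Stress pathways gave mixed counts. Over all tested genes 16.2% were called higher and 13.6% lower, 29.8% in either direction. Of the unfolded protein response genes 20% were called in either direction and of the heat shock genes 33.3%, near that share. Of 30 ATF4 targets 3 were higher and 9 lower, a split that moved to 6 and 6 with total count scaling, 3 and 6 in DESeq2, 2 and 5 with the pair with sertraline alone and 2 and 1 with the other pair. In this list the transcription factor ATF3 rose by 1.34 ± 0.10, PPP1R15A by 0.83 and DDIT3 (CHOP) by 0.49, and the pseudokinase TRIB3 fell by 0.64. Of 20 genes of the unfolded protein response 4 were higher, namely HERPUD1, DNAJB9, SDF2L1 and ERN1, by 0.55, 0.45, 0.37 and 0.26. Total count scaling called 7 and DESeq2 called 2, without SDF2L1 (adjusted p = 0.245) and ERN1 (0.434). Leaving out a library left 0 or 1. Heat shock genes gave 2 higher and 3 lower of 15, where CRYAB rose by 1.14 and BAG3 by 0.27 (DESeq2 adjusted p of 0.113 and 0.229), and HSPB1 and HSPE1 fell by 0.43 and 0.32. DESeq2 called 0 higher and 4 lower, and leaving out a library left at most 1 call. Of 20 tested targets of the antioxidant factor NRF2 6 were higher and 3 lower, and HMOX1, heme oxygenase, rose by 1.07 ± 0.10, AKR1B10 by 1.0, OSGIN1 by 0.85 and ABCC2 by 0.55. The metal-binding metallothioneins and their zinc exporter gave 8 higher of 9, led by MT1H (1.41 ± 0.13) and MT1G (1.03 ± 0.09), followed by MT1X (0.70) and MT2A (0.60), whose DESeq2 adjusted p were 0.418 and 0.287. Metallothionein genes are near-identical. DESeq2 called 3, and the pair without sertraline alone 2. Of 30 lysosome and autophagy genes 10 were higher and 2 lower, with GABARAPL1 and MAP1LC3B, which build autophagosomes, up by 1.02 and 0.61, the channel MCOLN1 up by 0.54 and GUSB down (log2 change -0.43). DESeq2 called 5 and 2 of these, total count scaling 15 and 2, the pair with sertraline alone 4 and 1 and the other pair 2 and 0. Of 30 glycolysis and hypoxia genes 9 were higher and 2 lower. NDRG1, a stress gene, had 78.0 and 131 CPM without XL413 and 194 and 259 CPM with it, HK1 and BNIP3L rose by 1.53 and 0.55, and CA12 fell by 0.56. DESeq2 called 6 higher and 2 lower, the pair with sertraline alone 5 and 2 and the other pair 4 and 0.

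Immediate early genes of MAP kinase signalling gave 10 higher and 6 lower of 22, and 6 higher and 1 to 3 lower when a library was left out. FOSB had 1.13 and 0.832 CPM without XL413 and 6.24 and 5.68 CPM with it, and JUNB, FOS and the phosphatase DUSP1 rose by 1.09, 1.28 and 0.95. Of 23 genes of the WNT and TGF-beta pathways 7 were higher and 3 lower, and DESeq2 called 1 and 2. Leaving out a library left 1 higher and at most 1 lower. LEF1, a WNT effector, had 3 reads in each library without XL413 and 30 and 24 with XL413 alone and both drugs. It passed the filter on low counts through the XL413 libraries, where it is high. BMP4 rose by 0.50 (DESeq2 adjusted p = 0.0741), and LGR5 and TBX3 fell by 0.52 and 0.37. Of 13 respiratory genes encoded in mitochondrial DNA 3 were higher, MT-ND1 by 0.35, MT-ND2 by 0.34 and MT-ND6 by 0.29. That is 23.1% of them, against 16.2% called higher over all tested genes. With total count scaling 10 were called, in DESeq2 2 were (MT-ND6 had an adjusted p of 0.173), and none was at an adjusted p under 0.01 or in any of the 4 fits that left out a library. The share of all reads on mitochondrial genes was 3.83% and 3.94% in the XL413 libraries and 3.16% and 2.64% in the others. The serotonin transporter SLC6A4 had 6.55, 12.3, 6.69 and 7.31 CPM, and was not called because its pairs differed in direction.

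Levels of markers of other cell types differed between lists, lowest for the endothelial and highest for the bile duct and immune lists. The summed endothelial markers had 7.23 and 5.06 CPM without XL413 and 5.96 and 4.38 CPM with it. Of 8, 4 passed the filter, where PECAM1 fell by 0.90. VWF had 2 and 10 reads without XL413 and 22 and 21 with it, and passed the filter largely through the XL413 libraries. VWF and CDH5, at no more than 1.18 CPM in any library, were called higher, but DESeq2 called neither (no adjusted p for VWF and 0.276 for CDH5). Without the control or XL413 library the VWF call was lost, and the CDH5 call was lost in each of the 4 fits that left out a library. The immune markers summed to 399 and 295 CPM without XL413 and 480 and 408 CPM with it, almost all of it from LYZ, while PTPRC (CD45) had 1 to 7 reads per library and NKG7 none. Stellate and fibroblast markers summed to 75.2 and 37.1 CPM without XL413 and 79.3 and 43.7 CPM with it. Their genes moved unequally, since LUM and PDGFRA rose by 1.81 and 0.77, and PDGFRB fell by 0.73. Without the control or XL413 library the calls of PDGFRA and PDGFRB were lost. COL3A1 was called at a change of 0.86, but not in DESeq2 (adjusted p = 0.0854) or in any of those 4 fits. Bile duct markers, of which SPP1, EPCAM, KRT19 and CFTR were called higher, summed to 406 and 353 CPM without XL413 and 612 and 445 CPM with it. The part of these markers in the results was not tested. In bulk samples, fewer cells of a kind and less RNA per cell cannot be told apart.

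The same comparison was made in Hep3B, to set beside that in Huh7. There 2296 of 15550 genes were called, 14.8%, with 1221 higher (7.85%) and 1075 lower (6.91%). Counts of calls in the 2 lines cannot be compared directly, since p-values were larger in Hep3B at a like ratio of change to SE. GPC4 changed by 1.28 ± 0.15 in Hep3B with an edgeR adjusted p of 1.09e-05. CDKN1A changed by 1.20 ± 0.13 in Huh7 with an edgeR adjusted p of 1.62e-17. The Hep3B library with XL413 alone also had the fewest total counts of the series, 20275392. Over the 14453 genes tested in both lines, 476 were called higher in both, 21.25% of the 2240 higher in Huh7 and 42.92% of the 1109 higher in Hep3B. Called lower in both were 389, 18.82% of 2067 and 38.4% of 1013. Without regard to a call in Hep3B, 1585 of the 2240 and 1450 of the 2067 had the same sign there. Called in the opposite direction in Hep3B were 88 and 100. The difference between the lines itself, tested in a fit of all 8 libraries, was called for 1510 of 16972 genes, 8.9%. The signed change was higher in Huh7 for 841 (4.96%) and higher in Hep3B for 669 (3.94%). DESeq2 called 750, and leaving out a Huh7 library left 496 to 859.

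Inflammatory and presentation genes often had a higher signed change in Huh7. Of 19 inflammatory genes 12 had a higher change in Huh7 and none in Hep3B, and of 15 presentation genes 7 and none. CXCL8 was already higher in Hep3B without XL413, at 56.1 and 31.7 CPM, and had 48.5 and 43.6 CPM with it. Its change in Hep3B minus that in Huh7 was -2.31 ± 0.25 (edgeR adjusted p = 8.78e-06). The same difference was -2.50 ± 0.27 for SPP1, -1.95 ± 0.21 for IL18 and -1.10 ± 0.15 for C3. It was -2.32 ± 0.25 for TAGLN and -2.02 ± 0.23 for COL1A2, which had 4.26 CPM or less in each Hep3B library. ATF3 differed by -1.69 ± 0.18. Of 20 NRF2 targets 9 had a higher signed change in Huh7, and 15 were called lower in Hep3B.

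Of 30 replication genes 11 had a higher signed change in Hep3B and none in Huh7. In Hep3B 5 of the 30 were called higher and none lower. UHRF1 differed by 1.22 ± 0.16 and MKI67 by 0.76 ± 0.14, since MKI67 had 453 and 306 CPM without XL413 and 496 and 383 CPM with it in Hep3B. MYCN differed by 1.65 ± 0.24 and AGXT by 2.32 ± 0.25. Most sterol genes were called lower in each line, 23 of 29 in Huh7 and 26 of 29 in Hep3B, and for 6 of 29 the signed change was higher in Huh7. GPAM did not pass the test of a difference, with -0.09 ± 0.17.

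The genes with the smallest p for a line difference were of several kinds. GPX2, an antioxidant peroxidase, had 10.7 and 12.4 CPM without XL413 and 39.3 and 57.4 CPM with it in Huh7, and 55.4, 50.1, 45.1 and 42.0 CPM in control, sertraline, XL413 and both in Hep3B. Its difference was -2.32 ± 0.16 (edgeR adjusted p = 4.65e-08). TXNIP, a thioredoxin inhibitor induced by glucose, differed by -2.05 ± 0.18, IGSF1 by -1.80 ± 0.15, the clotting inhibitor SERPINC1 by -2.19 ± 0.20 and the imprinted PEG10 by -1.82 ± 0.17. SERPINC1 and PEG10 fell in both lines and more in Hep3B. In the other direction, THBS4 differed by 1.86 ± 0.14, NR1H4 by 1.99 ± 0.16, the proteoglycan BGN by 1.73 ± 0.16, PKI55 by 1.76 ± 0.16 and AUTS2 by 1.99 ± 0.19. All but THBS4 of these 5 were called lower in Huh7 and higher in Hep3B.

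**Figure D5:**
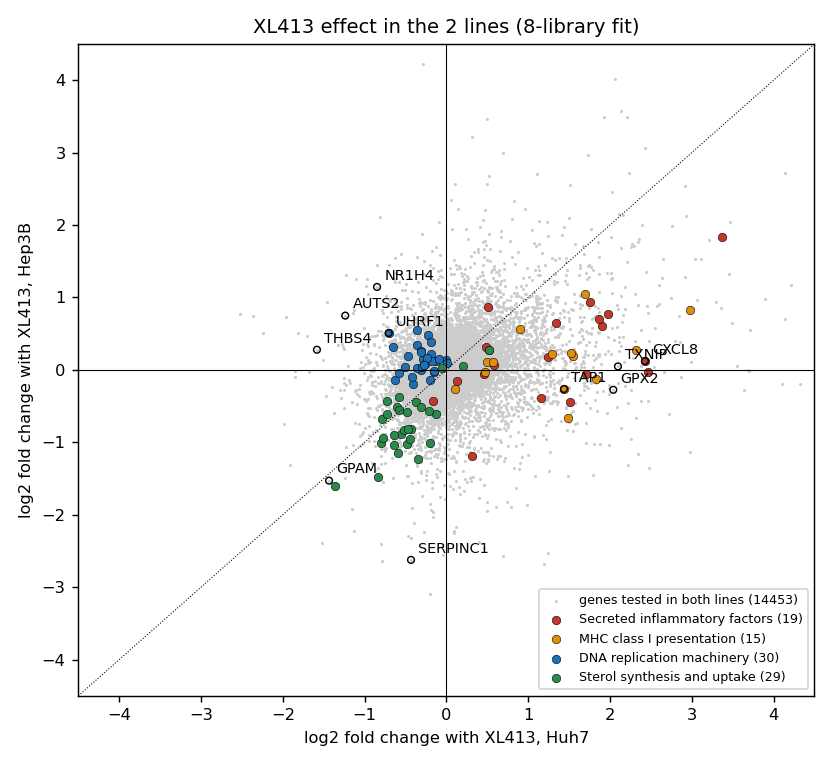
Log2 fold change with XL413 in Huh7 (horizontal) and Hep3B (vertical) from the fit of all 8 libraries, for 14453 genes tested in both lines, 2 of which lie outside the axes. The dotted line marks equal changes. Most sterol genes lie in the lower left in both lines, while most inflammatory and presentation genes spread to the right, and most replication genes lie left of 0 in Huh7 and near or above 0 in Hep3B.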

How the data were processed

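Poly(A) RNA was sequenced from 8 libraries, 1 per line and treatment. The authors deposited whole-number read counts per Ensembl gene with no normalization. HISAT2 and HTSeq were used with GRCh38 (hg38), per the submitters' processing notes, with versions not stated there. Libraries were stranded, per the labels, but the counting's strand setting is not given, so antisense genes may not be told apart. It held 0 columns of samples from elsewhere.

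The analysis used R 4.3.3 with edgeR 4.0.16: filterByExpr by XL413 status (15796 genes kept, 15914 removed), TMM, and glmQLFTest on sertraline plus XL413 over the 4 Huh7 libraries, with Benjamini-Hochberg adjustment over all genes tested and a threshold of 0.05. The block pairs libraries by the labelled sertraline treatment, not by replicate number, and each group has only 1 library. A standard error is the fold change divided by the root of the F statistic. It therefore rests on the pooled spread over genes and does not measure how far the 2 pairs differ. CPM values are TMM-scaled, and pair ratios use a pseudocount of 0.5 CPM. Hep3B was fitted likewise, and line differences in all 8 libraries with line-specific drug effects and 2 residual degrees of freedom. Where 2 identifiers share a symbol in a list, the one with more reads was used. Depths of 27262246 to 28902625 reads bound the precision of low genes, and give no measure of how cultures vary. The Huh7 fit and the line difference were checked on simulated counts. Those counts had the same spread for all genes and none between cultures. They therefore cannot show whether the pooled spread is right for these data.

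The members and lists were chosen with earlier results of these data known. Genes are named by a rule: the 12 largest rises and falls with a mean log2 CPM of at least 2, up to 4 called genes of smallest p per list, a set of genes named in any case, and, for the line difference, the 5 of smallest p in either direction. Some genes the rule takes, and 1 list, are not reported. CXCL1, CXCL6, CXCL10, AREG, VEGFA, RELA, B2M, STAT2, IFIT5, INSIG2 and other list members outside it, and the genes whose line differences are given beyond those 10, were chosen after their values were seen. Promoter windows and their coordinates are from RefSeq (GRCh38.p14), whose start sites may differ from the counting annotation. Alternatives were other scalings, filters, thresholds and pseudocounts, DESeq2 1.42.0, limma 3.58.1 voom, robust empirical Bayes, no block, 8 libraries, thinned counts and leaving out each library. Figures were drawn with matplotlib 3.10.9.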

Additional observations from a re-analysis of the deposited data

Results flagged for a closer look

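The XL413 effect differed between the lines for 1510 of 16972 genes, 8.9%, in a test of the difference itself (edgeR, adjusted p under 0.05, 8 libraries). Only 21 of them are listed here. Values are the log2 change in Hep3B minus that in Huh7. The signed change was higher in Huh7 for GPX2 (-2.32), IGSF1 (-1.80), TXNIP (-2.05), SERPINC1 (-2.19), PEG10 (-1.82), CXCL8 (-2.31), SPP1 (-2.50), IL18 (-1.95), C3 (-1.10), TAGLN (-2.32), COL1A2 (-2.02), ATF3 (-1.69). It was higher in Hep3B for THBS4 (1.86), NR1H4 (1.99), BGN (1.73), PKI55 (1.76), AUTS2 (1.99), MYCN (1.65), MKI67 (0.76), AGXT (2.32), UHRF1 (1.22). A higher signed change is not always a larger one. In Huh7 and Hep3B the log2 changes were -0.43 and -2.62 for SERPINC1, -0.47 and -2.29 for PEG10, and 0.25 and -1.55 for IGSF1. Of these genes 10 were named by rule for the smallest p in this same test, so that they pass it is no separate result. The others were named after their values were seen, and each line had 1 library per treatment.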

How the results depend on the processing

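The count of 4705 called genes moved to 1779 in DESeq2. Without the sertraline block (no replicate block) the count was 0 in edgeR, with 1547 genes at an unadjusted p under 0.05; DESeq2 and voom were not run without the block. No paired analysis by replicate number was possible because each group has 1 library; the pairing used is the labelled sertraline treatment. Leaving out each Huh7 library gave 870 to 1514 called genes, in a fit of the remaining 7 libraries where the pair left whole sets the effect. Without the control or XL413 library, which leaves the pair with sertraline, there were 1514 and 1513, and without the sertraline library or the one with both drugs 887 and 870. In those fits of 7 libraries the residual spread came from the Hep3B libraries, and agreement of pairs was not required. Other alternatives gave 3252 to 5680. The 289 genes at least 2-fold in both pairs became 1029 at 1.5-fold, 580 with a pseudocount of 0.1 CPM, 98 with 2 CPM and 130 at a mean log2 CPM of at least 2 (chosen after seeing the data). Opposite 2-fold pairs rose from 0 to 6 at 0.1 CPM. Agreement of pairs was 73.71% with total count scaling. In Hep3B 915 genes were called without the filter and 777 in DESeq2, and leaving out a Hep3B library gave 2294 to 2450. The line difference gave 750 genes in DESeq2 and 496 to 1899 without 1 library (835 without the Huh7 control, 508 without sertraline, 859 without XL413 and 496 without both drugs). Of 174 genes named by rule 166 were called, 94 of them in each of the 4 fits that left out a Huh7 library and 138 under DESeq2, voom, both other scalings and 8 libraries. None of the 166 called genes reversed direction in an alternative run. For the named genes not called, a change of sign without a call was not counted as a reversal. The causes of these shifts were not tested. With 1 library per group, no spread between cultures can be estimated.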
